A study of Mus musculus with 2 samples.

Results

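The cells described here are the lymphatic endothelial cells of the adult mouse lung, the cells that line the vessels draining fluid and immune cells from the tissue. They were chosen by their counts of 3 transcripts. A cell was a member if *Mmrn1*, *Prox1* and *Reln* together gave at least 3 unique molecular identifiers (UMIs, each standing for 1 captured RNA molecule), if it held no UMI of the leukocyte gene *Ptprc*, and if the platelet genes *Pf4* and *Ppbp* gave at most 1 UMI. Of 22315 cells that passed the filter on quality, out of 25094 barcodes in all, 202 were members.

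The droplet-based 3′ scRNA-Seq data came from lungs of adult mice given tamoxifen at 75 mg/kg on 5 consecutive days from an age of 3 months and studied 26 weeks after the first injection. The study's methods add further weekly doses of tamoxifen for analyses later than 3 months after the first round. Control mice carried floxed *Cebpa* alleles without Cre (Cebpa fl/fl, labelled FF). The other mice carried the same alleles and the tamoxifen-inducible Sftpc-CreERT2 (CebpaΔSftpc, labelled KO), in which Cre is driven by the promoter of a surfactant gene of alveolar type 2 (AT2) cells, so that lymphatic cells were not its target. The study counts 3 mice per genotype on a mixed background, and there was 1 library per genotype with no record of which mouse gave a cell. Differences between the genotypes are therefore without replicates and without tests, and intervals cover counting error only.

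Lymphatic endothelium differs from blood endothelium through the transcription factor Prox1, which sets and keeps its identity. It grows in response to VEGF-C, which binds the receptor encoded by *Flt4* together with the coreceptor encoded by *Nrp2*. It guides dendritic cells and T cells into the vessel with the chemokine Ccl21, and the hyaluronan receptor Lyve1 marks the blind-ended capillaries at which cells and fluid enter.

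The Cebpa fl/fl library held 69200420 UMIs and the CebpaΔSftpc library 64697396. The 132 Cebpa fl/fl members held 851277 UMIs, with a median of 5753 per cell (range 1089 to 24072). The 70 CebpaΔSftpc members held 355676, with a median of 4486.5 (range 1030 to 15410). The CebpaΔSftpc members were thus fewer and shallower, and 26 of the 70 had under 3000 UMIs against 26 of the 132. Shares of cells with a UMI are therefore also given as the expectation for 1000 UMIs drawn from every cell. Levels are given as CPM, the UMIs of a gene per 1000000 UMIs summed over the members of a library, with exact Poisson 95% intervals.

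The libraries differed in what else they held. Of the filtered cells, 192 (1.81%) held a *Ptprc* UMI in Cebpa fl/fl and 3888 (33.1%) in CebpaΔSftpc. Of the barcodes, 45 occurred in both libraries, and none of these was a member in both, though 2 CebpaΔSftpc members had a barcode that was also in the Cebpa fl/fl library. *Cebpa*, the floxed gene, had 19 UMIs in the Cebpa fl/fl members (22.3 CPM, 13.4 to 34.9) and 7 in the CebpaΔSftpc members (19.7 CPM, 7.91 to 40.6). The levels overlapped, so lymphatic cells gave no check of the deletion.

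The genes that chose the cells lie at chr6:60924976-60989378 (plus strand, *Mmrn1*), chr1:190118035-190170714 (minus strand, *Prox1*) and chr5:21884454-22344702 (minus strand, *Reln*) in GRCm38. The markers that did not enter the rule lie at chr4:42772860-42773993 (minus strand, *Ccl21a*) and chr11:49609263-49652739 (plus strand, *Flt4*). The 250 bases before the RefSeq transcription start (GRCm38.p6) are printed for *Prox1*, the transcription factor that defines these cells (the upstream of its 2 starts, chr1:190170828-190171077, minus strand), and for *Ccl21a*, the marker outside the rule that nearly all members carried (chr4:42773992-42774241, minus strand). They were searched on both strands for the SOX-type motif AACAAT, the nuclear receptor half-site AGGTCA and the GATA-type motif AGATAA. A match would stand in capitals.
Prox1: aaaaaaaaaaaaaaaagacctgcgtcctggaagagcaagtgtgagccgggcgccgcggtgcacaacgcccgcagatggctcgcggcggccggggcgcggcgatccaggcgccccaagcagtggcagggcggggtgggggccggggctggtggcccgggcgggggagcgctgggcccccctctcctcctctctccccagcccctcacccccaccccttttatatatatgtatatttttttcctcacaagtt
Ccl21a: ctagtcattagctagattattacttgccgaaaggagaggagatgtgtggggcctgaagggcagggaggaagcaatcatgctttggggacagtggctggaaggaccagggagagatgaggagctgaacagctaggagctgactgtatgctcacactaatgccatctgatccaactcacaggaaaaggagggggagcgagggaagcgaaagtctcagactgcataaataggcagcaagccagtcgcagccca
None of the 3 motifs was found in these windows. Of the windows of the other *Prox1* start, *Reln*, *Flt4* and *Mmrn1*, only that of *Mmrn1* (chr6:60944067-60944316, plus strand), whose RefSeq start lies inside the gene as GENCODE annotates it, held a match, which was AACAAT. The motif AACAAT occurred in 9.42% of 32851 promoter windows of this length, AGGTCA in 14% and AGATAA in 9.99%.

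The rule left a different edge in the libraries. In Cebpa fl/fl, the median member held 29 UMIs of the 3 genes and 1 cell held exactly 3, while 8 cells with exactly 2 were left outside, of which 2 had a *Ccl21a* UMI. In CebpaΔSftpc, the median was 17.5, 9 cells held exactly 3, and 24 cells with exactly 2 were left outside, of which 18 had a *Ccl21a* UMI. All 3 genes were seen in 109 (82.6%) Cebpa fl/fl and 39 (55.7%) CebpaΔSftpc members. *Mmrn1*, which encodes the adhesive glycoprotein multimerin 1, stood at 3550 CPM in Cebpa fl/fl and 3073 in CebpaΔSftpc members, *Prox1* at 613 and 568, and *Reln*, which encodes the secreted glycoprotein reelin, at 1190 and 782. These values describe the choice of cells and are not findings.

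*Ccl21a*, which the rule did not use, was found in 97.0% of Cebpa fl/fl members and 92.9% of CebpaΔSftpc members (94.1% and 89.6% at 1000 UMIs per cell). Leukocytes, taken as cells with at least 3 *Ptprc* UMIs, held a *Ccl21a* UMI in 6.38% and 6.87% of cells at median depths of 7923 and 7774 UMIs. A marker outside the rule was thus found in nearly all members of both libraries, and the name lymphatic was kept. Of the members, 96.2% in Cebpa fl/fl and 70.0% in CebpaΔSftpc held the VEGF-C receptor gene *Flt4* (56.5% and 48.7% at 1000 UMIs), against 7.45% and 5.07% of leukocytes. At least 6 UMIs of the rule genes were held by 129 of the 132 and 48 of the 70 members. Of these cells, 96.9% and 89.6% held *Flt4*. Both *Ccl21a* and *Flt4* were seen in 125 Cebpa fl/fl members and in 49 CebpaΔSftpc members. Neither was seen in 2 and in 5.

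**Figure D1:**
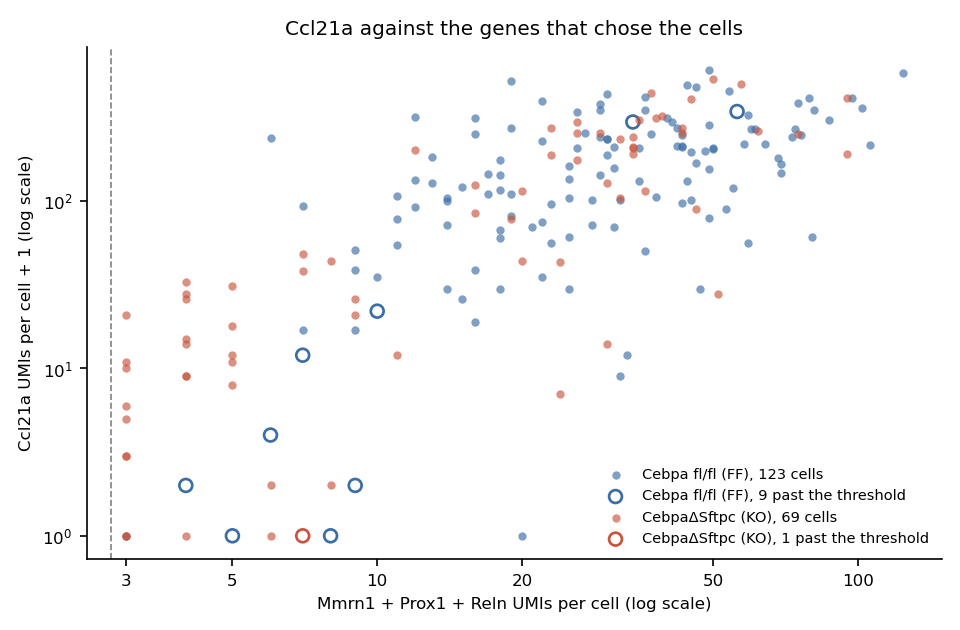
Each point is 1 member cell, placed by its UMIs of *Mmrn1*, *Prox1* and *Reln* together (x axis, log scale) and its UMIs of *Ccl21a* plus 1 (y axis, log scale). The dashed line is the minimum of 3 UMIs, and open circles are the 10 cells that met a threshold, set after seeing the data, for transcripts of another cell type. Most CebpaΔSftpc cells near the line carried *Ccl21a*, and 5 CebpaΔSftpc and 4 Cebpa fl/fl cells had none.

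Members also carried transcripts of other cell types, and 10 of them met a threshold for these that was set after seeing the data. In Cebpa fl/fl, 3 members had 5378, 2387 and 1139 UMIs of the AT2 gene *Sftpc*, 2 had 485 and 194 UMIs of the fibroblast gene *Dcn*, 1 had 124 UMIs of ciliated cell markers, and 1 had 77 UMIs of *Calca*, which encodes a neuropeptide, with 8 of *Prox1* and none of *Ccl21a*. The remaining 2 met it with 5 UMIs of 4 fibroblast genes each, and held 296 and 342 UMIs of *Ccl21a*. In CebpaΔSftpc, 1 member held 4900 hemoglobin UMIs and no *Ccl21a*. These 9 and 1 cells held 15.4% and 1.80% of the UMIs of the members of their library. Values without these 10 cells, an alternative chosen after seeing the data, rest on 123 and 69 cells and are given for the genes with a printed ratio, and for the summed marker lists, where the ratio moved by over 1.5 times.

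Lymphatic cells were a smaller share of the CebpaΔSftpc library. They made up 1.25% of filtered Cebpa fl/fl cells (Clopper-Pearson 95% interval 1.04% to 1.48%) and 0.597% of filtered CebpaΔSftpc cells (0.465% to 0.753%), a log2 ratio of CebpaΔSftpc over Cebpa fl/fl of -1.06 (-1.50 to -0.64). Among lymphatic and vascular endothelial cells together, the shares were 1.77% (1.49% to 2.10%) and 1.17% (0.915% to 1.48%), a log2 ratio of -0.60. The difference was smaller still among cells without *Ptprc*, platelet or hemoglobin-rich cells, as given with the other alternatives below. The bar on *Ptprc* alone kept 1 Cebpa fl/fl and 19 CebpaΔSftpc cells out, and these 19 held 2876 *Ccl21a* UMIs. Without that bar, 133 and 89 cells were members and the log2 ratio was -0.73 (-1.13 to -0.33). The members held 94.7% of all *Ccl21a* UMIs in filtered Cebpa fl/fl cells and 65.3% in filtered CebpaΔSftpc cells. Fewer lymphatic cells in the lung, fewer of them recovered and more leukocytes beside them cannot be told apart in these data.

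The members were set beside vascular endothelial cells of the same library, 7312 in Cebpa fl/fl and 5902 in CebpaΔSftpc, which had at least 3 UMIs of *Cdh5*, *Pecam1*, *Cldn5* and *Tie1* and none of the rule genes. Of 6318 genes with at least 30 UMIs over all members, 283 (4.48%) were at least 4-fold higher in lymphatic cells in both libraries and 79 (1.25%) at least 4-fold lower. The minimum of 30 UMIs was set on the members alone, so genes scarce in lymphatic cells were left out. The counts of higher and lower genes can therefore not be set against each other. Both are descriptions of how the chosen cells differ. *Ccl21a* stood at 27448 CPM (27097 to 27802) in Cebpa fl/fl and 24168 CPM (23660 to 24684) in CebpaΔSftpc members, 2694-fold and 1432-fold over vascular cells. The mouse genome holds near-identical Ccl21 genes, so how reads were split among them is uncertain, and *Gm21541*, a copy of this family, had 126 and 77 UMIs.

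The other genes at the top of this order belonged to several groups. *Hoxd4*, *Hoxd9* and *Hoxd3os1* come from the HoxD cluster of positional transcription factors, and *Hoxd4* stood at 65.8 and 67.5 CPM with 3 and 2 UMIs in all vascular cells. *Stab2*, a scavenger receptor for hyaluronan, stood at 59.9 and 101 CPM, 369-fold and 365-fold over vascular cells. *Ptx3*, which encodes the soluble pattern recognition protein pentraxin 3, stood at 81.1 and 231 CPM against 0.0696 and 0.277 CPM. *Duox2* encodes a hydrogen peroxide-producing oxidase, *Dtx1* a regulator of Notch, *Gria2* a glutamate receptor subunit, *Slc45a3* a solute carrier and *Apba2* a neuronal adaptor protein. *Clca2*, *Gm525* and *1110032F04Rik* complete the 15. All of these except *Dtx1* and *Slc45a3* had at most 10 UMIs in the vascular cells of each library.

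Genes known for lymphatic identity separated the cells broadly. In a list of 20 such genes without the rule genes, 16 were at least 4-fold higher than in vascular cells in both libraries and none was 4-fold lower. *Maf*, a transcription factor of lymphatic endothelium, stood at 1161 and 1082 CPM (145-fold and 108-fold over vascular cells), *Tbx1* at 213 and 197 CPM (85.6-fold and 126-fold) and *Nr2f2*, a partner of Prox1, at 529 and 568 CPM (10.1-fold and 9.51-fold). *Pdpn*, the membrane glycoprotein podoplanin, was 67.4-fold and 29.5-fold higher, and *Flt4* 15.8-fold and 19.3-fold. *Lyve1* was only 2.59-fold and 2.33-fold higher, since vascular cells themselves stood at 602 and 339 CPM. *Cldn5*, a tight junction gene that helped choose the vascular cells, and *Sox18* stood close to the vascular level.

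**Figure D2:**
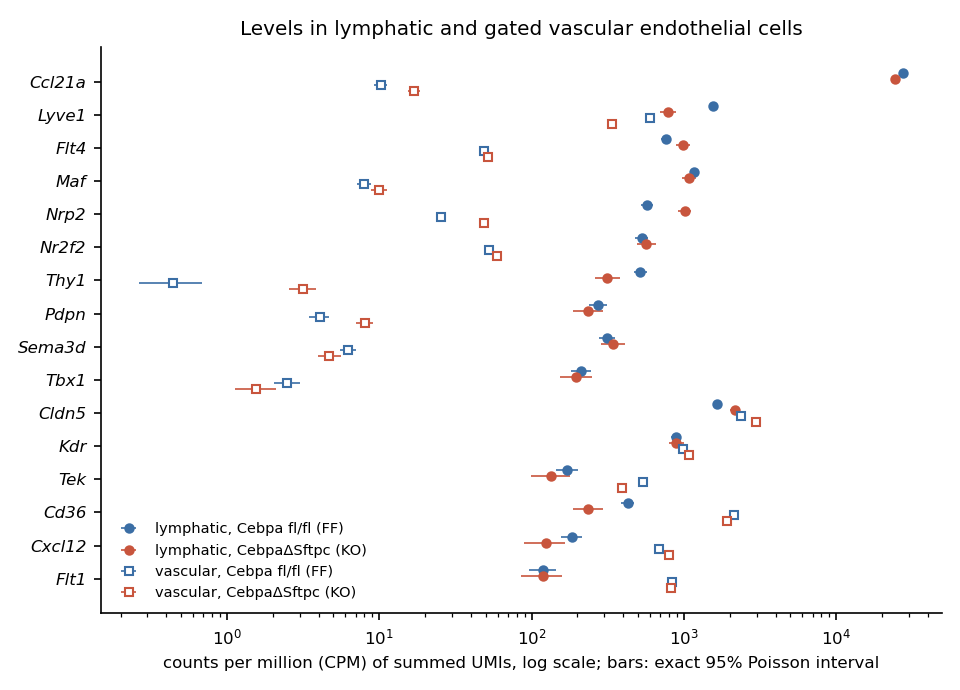
Levels of 16 genes in CPM of summed UMIs (log scale) in lymphatic members (filled circles) and vascular endothelial cells (open squares) of Cebpa fl/fl (blue) and CebpaΔSftpc (red), with exact Poisson 95% intervals. *Ccl21a* lies at 27448 and 24168 CPM in lymphatic cells and at 10.2 and 16.9 CPM in vascular cells, and *Flt1* lies lower in lymphatic cells.

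On the other side stood genes of blood endothelium. *Flt1*, a VEGF-A receptor, was 7.09-fold and 7.02-fold lower in lymphatic than in vascular cells, at 119 and 118 CPM. The ligand gene *Bmp6* was 7.99-fold and 13.9-fold lower, the sodium channel gene *Scn7a* 7.13-fold and 7.04-fold, and *Prx*, a marker of the aerocyte type of capillary cell, 8.44-fold and 7.45-fold. *Tspan8*, *Krt80*, *Tmcc3*, *Rasgef1a*, the drug transporter gene *Abcb1a* and the adhesion receptor gene *Adgrl3* made up the rest of the 10. All 12 pan-endothelial markers were detected, with a summed level of 7054 CPM in Cebpa fl/fl and 7909 CPM in CebpaΔSftpc members against 13867 and 13662 CPM in vascular cells. Their leading gene in the members was *Cldn5*. It, *Cdh5*, *Pecam1* and *Tie1* also chose the vascular cells, so the vascular sum is not independent of that choice. How much the choice added to it was not tested.

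**Figure D3:**
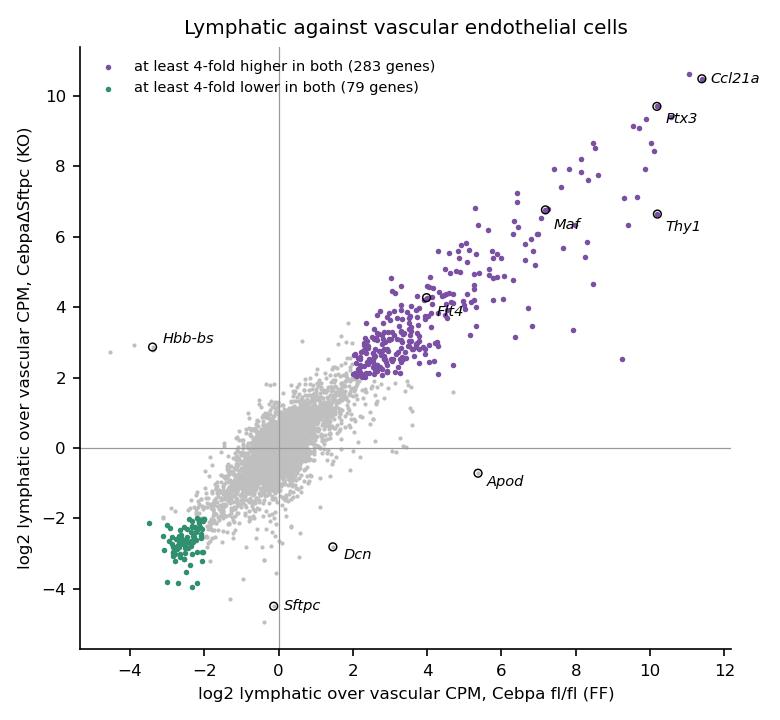
Each point is 1 of the genes with at least 30 UMIs over the members, placed by the log2 ratio of its CPM in lymphatic over vascular cells in Cebpa fl/fl (x axis) and in CebpaΔSftpc (y axis), with sums floored at 3 UMIs. The 283 purple genes are at least 4-fold higher in both and the 79 green genes at least 4-fold lower, while *Sftpc*, *Dcn*, *Apod* and *Hbb-bs* lie off the diagonal, and 1 cell held 5378 of the 9526 *Sftpc* UMIs in Cebpa fl/fl and 1 cell 2804 of the 2828 *Hbb-bs* UMIs in CebpaΔSftpc.

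Between the genotypes, 171 of the 6318 genes (2.71%) were at least 2-fold higher and 297 (4.7%) at least 2-fold lower in CebpaΔSftpc members, with a median log2 ratio of -0.00 over all of them and a 10th and 90th percentile of -0.70 and 0.59. Without the 10 cells, 148 were higher and 174 lower of 5776. The counts for the lists of genes below stand beside the 2.71% and 4.7% of all genes, and no list was tested against them. The lymphatic identity list had a median log2 ratio of 0.00, with 1 of 20 genes at least 2-fold higher and none 2-fold lower. Its median was -0.13 without the 10 cells, and *Lyve1* and *Fgl2* were 2-fold lower. *Maf* (-0.10, -0.27 to 0.07), *Nr2f2* (0.10, -0.14 to 0.35), *Tbx1* (-0.11, -0.53 to 0.29), *Pdpn* (-0.21, -0.59 to 0.15) and *Sema3d* (0.13, -0.19 to 0.44) had intervals that span 0. Without the 10 cells, the intervals of *Maf* (-0.25, -0.42 to -0.08) and *Pdpn* (-0.37, -0.75 to -0.0035) lay below 0, and the others still spanned it. *Ccl21a* had a log2 ratio of -0.18 (-0.22 to -0.15).

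Within that list the genes went apart. *Lyve1* had 1326 UMIs in Cebpa fl/fl members (1558 CPM, 1475 to 1644) and 280 in CebpaΔSftpc members (787 CPM, 698 to 885), a log2 ratio of -0.98 (-1.18 to -0.80). It was found in 94 of 132 (71.2%) and 28 of 70 (40.0%) members, or 51.9% and 26.1% at 1000 UMIs per cell, against 9.57% and 11.9% of leukocytes. In vascular cells its log2 ratio was -0.83 (-0.86 to -0.80), so vascular cells had a lower *Lyve1* level in CebpaΔSftpc as well. *Fgl2*, which encodes a fibrinogen-like protein, stood at 1243 and 672 CPM (log2 ratio -0.89) and the surface glycoprotein gene *Thy1* at 518 and 315 CPM (-0.72). *Sema3a*, the gene of a secreted guidance protein needed for lymphatic valves, stood at 76.4 CPM (58.9 to 97.3) and 197 CPM (153 to 249), a log2 ratio of 1.37 (0.86 to 1.88).

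Of the receptor genes of the VEGF-C pathway, the coreceptor gene was the one that differed most. *Nrp2* stood at 577 CPM (527 to 630) in Cebpa fl/fl and 1012 CPM (910 to 1122) in CebpaΔSftpc members, a log2 ratio of 0.81 (0.61 to 1.01), and it was 0.93 in vascular cells. *Flt4* had a log2 ratio of 0.37 (0.18 to 0.56), which was 0.19 without the 10 cells, with an interval that spans 0. *Kdr*, the other VEGF-C receptor gene, stood at 887 and 894 CPM, and *Tek*, the angiopoietin receptor gene, at 170 and 135 CPM. *Ptprb*, whose phosphatase restrains Tek, was lower, at 874 and 537 CPM (-0.70, -0.94 to -0.47), and had a log2 ratio of -0.58 in vascular cells. Of 17 genes of the VEGF-C and angiopoietin axis with enough UMIs, none was 2-fold higher and 1, *Adm*, was 2-fold lower, with 31 UMIs in Cebpa fl/fl and 2 in CebpaΔSftpc members. The list's median log2 ratio was -0.01.

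Of 17 transcription factors of lymphatic endothelium, 2 were 2-fold higher and none 2-fold lower, with a median of 0.27. *Sox17* alone was 2-fold higher without the 10 cells, with a median of 0.090. *Sox17* stood at 30.5 and 70.3 CPM (1.20, 0.35 to 2.05) and *Sox7* at 22.3 and 45.0 CPM (1.01). *Foxp2*, which is active in collecting lymphatics, stood at 78.7 and 42.2 CPM (-0.90, -1.82 to -0.08).

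Of 8 genes of capillary lymphatics, 1 was 2-fold higher and 1 was 2-fold lower, with a median of -0.26. These are single genes, beside 2.71% and 4.7% of all genes. Without the 10 cells they were 1 and 2, *Lyve1* added (median -0.36). *Il33*, an alarmin cytokine gene, had 77 UMIs in Cebpa fl/fl (90.5 CPM, 71.4 to 113) and 5 in CebpaΔSftpc (14.1 CPM, 4.56 to 32.8), a log2 ratio of -2.69 (-4.35 to -1.40). In vascular cells it was -1.38. *Ptx3* went the other way, with 69 UMIs in Cebpa fl/fl and 82 in CebpaΔSftpc. Its log2 ratio was 1.51 (1.03 to 1.99), and 25.0% and 25.7% of members held it. *Piezo2*, the gene of a mechanosensitive channel, stood at 148 and 78.7 CPM (-0.91), and *Mrc1*, the mannose receptor gene, at 337 and 366 CPM (0.12, -0.19 to 0.42).

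Of 12 collecting and valve genes with enough UMIs, none was 2-fold higher and 1, *Adm*, was 2-fold lower, with a median of -0.04. *Itga9*, the integrin gene of valves, stood at 184 and 273 CPM (0.56, 0.18 to 0.94), *Gja1* at 295 and 259 CPM and *Fbln2* at 95.2 and 129 CPM. At least 1 UMI of *Cldn11*, *Foxc2* or *Gja4*, 3 genes of valves and collecting vessels, was found in 51 (38.6%) Cebpa fl/fl and 14 (20%) CebpaΔSftpc members, or 9.98% and 6.61% at 1000 UMIs per cell. At least 2 UMIs were found in 19 (14.4%) and 8 (11.4%). Cells without *Lyve1* kept the chemokine. *Ccl21a* was at 27204 CPM in the 38 Cebpa fl/fl and 22153 CPM in the 42 CebpaΔSftpc members without a *Lyve1* UMI, against 27542 and 26190 CPM in those with one, and the median depth of the former was 5218 and 2743.5 UMIs.

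Of 14 genes of leukocyte traffic, 1, *Il33*, was 2-fold lower and none 2-fold higher (median -0.23). Among 13 without the 10 cells, *Il33*, *Il7* and *Lyve1* were 2-fold lower. *Il7*, which encodes a survival cytokine of lymphocytes that lymphatic endothelium supplies, stood at 153 CPM (128 to 181) and 81.5 CPM (54.6 to 117), a log2 ratio of -0.91 (-1.54 to -0.32). It was 0.42 in vascular cells. *Cxcl12* stood at 184 and 124 CPM (-0.58, -1.09 to -0.09) and *Stab1*, a scavenger receptor gene, at 589 and 810 CPM (0.46, 0.25 to 0.67).

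Among 23 genes of lipid handling and endocytic uptake, 1 was 2-fold lower and none 2-fold higher, with a median of 0.08. *Abca1*, the cholesterol exporter gene, stood at 479 CPM (434 to 528) and 233 CPM (186 to 289), a log2 ratio of -1.04 (-1.40 to -0.69), while vascular cells had 0.33. *Cd36*, the fatty acid translocase gene, stood at 428 and 236 CPM (-0.86) and the caveolar gene *Cavin2* at 1951 and 1358 CPM (-0.52). *Stab2* had a log2 ratio of 0.76 (0.10 to 1.40), which was 0.54 (-0.12 to 1.18) without the 10 cells, an interval that spans 0.

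Junction genes stayed within 2-fold. Of 17, none was 2-fold higher or lower, with a median of -0.02, and *Cldn5*, at 1650 and 2162 CPM, had a log2 ratio of 0.39 (0.26 to 0.52), next to 0.33 in vascular cells. Of 23 matrix genes, 1 was 2-fold higher and 2 were 2-fold lower (median -0.09). *Adamts1*, a secreted protease gene, stood at 64.6 and 143 CPM (1.15), *Sparc* at 493 and 723 CPM (0.55), and *Timp3*, a protease inhibitor gene, at 2133 and 1901 CPM (-0.17). *Mmp2* and *Serpine2* were the lower genes, at log2 ratios of -1.74 and -1.06. Of *Mmp2*, 32 and 4 UMIs became 8 and 4 without the 10 cells, a log2 ratio of 0.044 (-2.14 to 1.94), while *Sparcl1* was then 2-fold higher.

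TGF-beta ligand genes went apart. *Tgfb2* stood at 89.3 CPM (70.3 to 112) and 28.1 CPM (13.5 to 51.7), a log2 ratio of -1.67 (-2.78 to -0.71), and *Tgfb1* at 130 CPM (107 to 157) and 242 CPM (193 to 299), a log2 ratio of 0.89 (0.47 to 1.31). *Smad6*, an inhibitor of BMP signalling, had 53 and 5 UMIs (-2.15, -3.83 to -0.83). When all members with UMIs of other cells, capillary markers included, were left out, 4 and 2 of these UMIs remained in 85 and 50 cells. Of 22 genes of these pathways, 3 were 2-fold lower and none 2-fold higher, with a median of -0.25. The third, *Bmp6*, had 26 and 4 UMIs and fell under 30 without the 10 cells.

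Antigen presentation genes had a median log2 ratio of 0.46 over 15 genes, against 0.10 for the same genes in vascular cells. The median was 0.38 in lymphatic cells without the 10 cells. Of the 15 genes, 3 were 2-fold higher and none 2-fold lower. All 3 encode chains of MHC class II, with *H2-Eb1* at 28.2 and 95.6 CPM (1.76, 0.97 to 2.58), *H2-Ab1* at 64.6 and 149 CPM (1.21, 0.63 to 1.78) and *H2-Aa* at 74.0 and 163 CPM (1.14, 0.60 to 1.68). Without the 10 cells *H2-Aa* stood at 41.7 and 166 CPM (1.99, 1.33 to 2.68). *Cd74*, which encodes the invariant chain of class II, had 217 and 108 UMIs (255 and 304 CPM, log2 ratio 0.25, -0.09 to 0.59) and, without the 10 cells, 44 and 107 UMIs (61.1 and 306 CPM, 2.33, 1.81 to 2.87), so that 4 of the 15 genes were then 2-fold higher. In vascular cells the log2 ratios of *H2-Eb1*, *H2-Ab1*, *H2-Aa* and *Cd74* were 0.58, 0.53, 0.30 and 0.63, all with intervals above 0. The class I gene *H2-K1* stood at 913 and 1468 CPM (0.69, 0.52 to 0.85) and *B2m*, the light chain of class I, at 1374 and 1889 CPM (0.46). Markers of leukocytes were measured beside them. Summed over 7 genes, B cell markers stood at 7.05 and 107 CPM, with *Igkc* leading, 8 dendritic cell markers at 161 and 155 CPM, with *Fscn1* leading and *Flt3*, *Xcr1*, *Clec9a*, *Cd209a* and *Ccr7* at 0, and 10 macrophage and monocyte markers at 277 and 439 CPM (97.2 and 444 CPM without the 10 cells), with *Marco* at 0. Their leading gene *Lyz2*, a lysozyme gene that AT2 cells also express, had 221 and 76 UMIs (260 and 214 CPM, log2 ratio -0.28, -0.68 to 0.10) and, without the 10 cells, 57 and 75 UMIs (79.2 and 215 CPM, 1.44, 0.92 to 1.96). It was -0.94 in vascular cells. Their part in the class II values was not tested.

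Stress and inflammation genes were mixed. Of 22 immediate early and heat shock genes, 2 were 2-fold higher and 2 were 2-fold lower (median 0.24), or 4 and none without the 10 cells (median 0.47), with *Fosb* at 98.7 and 292 CPM (1.57). *Atf3* was lower, at 204 and 42.2 CPM, but 150 of its 174 Cebpa fl/fl UMIs lay in the cell with *Calca*, and without the 10 cells its log2 ratio was 0.37. Of 12 acute inflammation genes, 1 was 2-fold higher, *Socs3*, a feedback inhibitor of cytokine signalling, at 34.1 and 87.2 CPM (1.36, 0.58 to 2.14). Of 16 interferon response genes, 1 was 2-fold higher, *Rsad2*, with 11 of its 20 CebpaΔSftpc UMIs in 1 cell and a log2 ratio of 1.04 (-0.46 to 2.55) without the 10 cells, where it fell under 30 UMIs and *Rtp4* was 2-fold higher. Among the C/EBP family, *Cebpb* stood at 174 and 236 CPM (0.44, 0.04 to 0.84) and *Cebpd* at 362 and 408 CPM (0.17, -0.12 to 0.46).

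None of 26 nuclear genes of oxidative phosphorylation (median 0.01), 13 mitochondrial transcripts (-0.08) and 8 Notch genes (-0.04) was 2-fold higher or lower. Semaphorin and guidance genes had 1 of 20 2-fold higher, *Sema3a*, and none lower (median 0.14), and of 7 nuclear and ribosomal RNA-overlapping transcripts, 1 was higher and 2, *Kcnq1ot1* and *Meg3*, were lower (median -0.03). No gene of 6 was 2-fold lower without the 10 cells (median 0.13). Of 6 proliferation genes, 3 were 2-fold lower, but 38 of 40 Cebpa fl/fl UMIs of *Top2a* and 27 of 32 of *Cenpf* lay in 1 cell, which also held 235 *Ccl21a* UMIs.

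**Figure D4:**
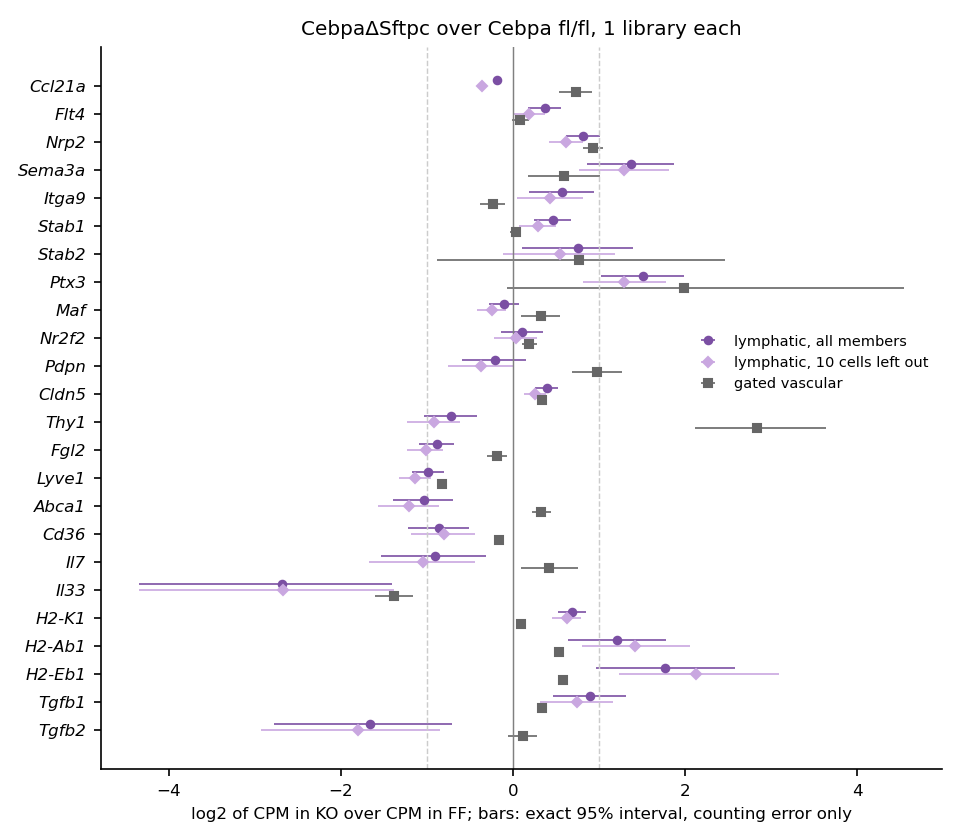
Log2 ratio of CPM in CebpaΔSftpc over Cebpa fl/fl for 24 genes in all 202 lymphatic members (dark purple), in the 192 left without the 10 cells that met the threshold for transcripts of other cells (light purple) and in vascular endothelial cells (grey), with exact 95% intervals for counting error. Dashed lines mark 2-fold, and *Lyve1*, *Nrp2* and *Il33* lie on the same side of 0 in lymphatic and vascular cells, while *Thy1*, *Abca1* and *Il7* lie on opposite sides.

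The 24 genes with intervals farthest from 0 were mostly transcripts known from other cells. Of the 12 lowest, *Sftpc*, *Sftpa1*, *Sftpb*, *Sftpd*, *Slc34a2*, *Cxcl15* and *Napsa* were in the list of AT2 markers, *Dcn* in that of fibroblasts, and *Wfdc2*, *Cbr2*, *Chchd10* and *Apod* in neither. *Sftpc* had 9526 UMIs in Cebpa fl/fl members, 5378 of them in 1 cell, and 36 in CebpaΔSftpc members. It had a median of 5 UMIs per Cebpa fl/fl member and of 0 per CebpaΔSftpc member, next to 4 and 0 per vascular cell, and was seen in 98.9% and 51.6% of leukocytes. Without the 10 cells its log2 ratio was -3.02 in place of -6.79. That of *Sftpa1* was then -2.99, of *Cxcl15* -2.33, of *Chchd10* -2.09, of *Sftpb* -1.64, of *Apod* -1.62, of *Cbr2* -1.40, of *Slc34a2* -1.04, of *Sftpd* -0.69, of *Dcn* and *Wfdc2* -0.54 and of *Napsa* 0.044, with sums floored at 3 UMIs. The 10 AT2 markers summed to 14180 and 219 CPM, with *Sftpc* leading and *Lyz1* at 0, and the 10 fibroblast markers to 1373 and 214 CPM, led by *Dcn* and *Inmt*. These sums were 1211 and 220 CPM for AT2 and 153 and 218 CPM for fibroblast markers without the 10 cells. *Apod* had 259 UMIs in Cebpa fl/fl members, 240 of them in 1 cell rich in *Dcn*, and 1 in CebpaΔSftpc members.

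Of the 12 highest, *Hba-a1*, *Hba-a2*, *Hbb-bs* and *Hbb-bt* encode hemoglobin, and 2804 of 2828 UMIs of *Hbb-bs* in CebpaΔSftpc lay in 1 cell. Without the 10 cells their log2 ratios were 3.04, 2.63, 1.72 and 1.78. The neutrophil gene *S100a8* had 1 UMI in Cebpa fl/fl and 90 in CebpaΔSftpc members (253 CPM). Of these 90, 38 lay in 1 cell, and 24 of the 70 members held any. Its partner *S100a9* had 0 and 105 UMIs (295 CPM), which was 83.8-fold higher with the 0 set to the floor of 3 UMIs. That ratio is an estimate and not a minimum, since its interval for counting error reaches lower. *Chil3*, known from lung macrophages, had 0 and 54 UMIs. *S100a9* was found in 48.6% of CebpaΔSftpc members (25.5% at 1000 UMIs) and stood at 268 CPM in CebpaΔSftpc vascular cells. The 8 neutrophil markers summed to 35.2 and 678 CPM in lymphatic cells and to 26.6 and 616 CPM in vascular cells. Both cell types thus held more of these transcripts in the CebpaΔSftpc library. *AY036118*, a transcript that overlaps ribosomal RNA, stood at 981 and 3585 CPM, with log2 ratios of 1.87 in lymphatic and 1.85 in vascular cells. *AA467197* (1.44, 1.02 to 1.86), *Fosb*, *Ptx3* and *Rsad2* complete the 12. The part of free RNA and of mixed droplets in these values was not tested.

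Over all members, markers of blood endothelial subtypes summed to less than in vascular cells, though arterial markers stood close to the vascular level. General capillary markers stood at 1163 and 1192 CPM (4676 and 4009 CPM in vascular cells), with *Plvap* leading, and aerocyte markers at 760 and 596 CPM (3806 and 3927 CPM), with *Emp2* leading. Venous markers, led by *Vwf*, summed to 419 and 357 CPM (1254 and 940 CPM in vascular cells). Arterial markers, led by *Fbln5*, summed to 472 and 455 CPM (524 and 488 CPM in vascular cells), or to 528 and 464 CPM without the 10 cells. The 5 ciliated markers summed to 166 and 5.62 CPM, and 60 of their UMIs in Cebpa fl/fl were of *Ccdc153*, 59 of these in 1 cell. The sums were 18.1 and 5.73 CPM without the 10 cells. Smooth muscle and pericyte markers summed to 115 and 45.0 CPM (45.8 CPM in both without the 10 cells), airway secretory markers, led by *Scgb1a1*, to 282 and 323 CPM and AT1 markers, led by *Clic5*, to 439 and 450 CPM. Mesothelial markers summed to 9.40 and 8.43 CPM (8 and 3 UMIs, or 2 and 3 without the 10 cells), with *Msln*, *Upk3b*, *Lrrn4* and *Wt1* at 0, and T and NK cell markers to 3.52 and 28.1 CPM, with *Cd3e*, *Cd3g*, *Nkg7* and *Ncr1* at 0.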

How the data were processed

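Lung cells of Cebpa fl/fl and CebpaΔSftpc mice were profiled by 10x 3′ scRNA-Seq, with 1 library per genotype. The authors deposited whole UMI counts per gene and barcode, made by Cell Ranger on mm10 and not normalized, for the barcodes it kept as cells. Per the submitters' processing notes the version was 6.1.1, while the file headers give 5.0.0. Whether sorted cells (the labels name FACS) or whole-lung suspensions (named in the study's methods) were loaded is unclear. The study's sort for epithelial cells had gates against doublets and CD45 (*Ptprc*) cells, and whether either applied to these libraries is not stated in the sources used here. No doublet caller was run. The files list 32285 genes.

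Barcodes with under 200 genes, over 20% mitochondrial UMIs or under 1000 UMIs were left out. UMIs were summed over the members of a library and divided by all UMIs of these cells (CPM). Ratios are log2 of CebpaΔSftpc over Cebpa fl/fl, with sums floored at 3 UMIs and exact conditional binomial 95% intervals. Genes counted as tested needed 30 UMIs over the members of both libraries. The share of cells with a UMI at 1000 UMIs per cell is the hypergeometric expectation. With 1 library per genotype no p-value was computed, and at least 2-fold (CebpaΔSftpc over Cebpa fl/fl) or 4-fold (lymphatic over vascular cells, in both libraries) stands for a call. Counting error and the floor of 3 UMIs bear on single genes, since PCR copies are removed by the UMI.

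The rule for the members, the gene lists and the rules for named genes were chosen with earlier results of these data known. Named were the genes of the rule and its markers, the 15 highest and 10 lowest genes against vascular cells (the lowest among genes with a vascular level of at least 100 CPM in both libraries, whatever their UMIs in the members), the 12 highest and 12 lowest between genotypes by the interval bound nearest 0, and from each list the genes with the most UMIs or with intervals farthest from 0. The cells with *Ptprc*, the Ccl21 copies and *Cd74* were looked at after their values were seen. Other minimums of UMIs, limits, denominators, scalings and weights were tried. Scripts used Python 3.11.15 (scipy 1.17.1, numpy 2.4.6, matplotlib 3.10.9, pandas 2.3.3) and were tested on simulated data. Gene positions are those of GENCODE mouse release M21.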

Additional observations from a re-analysis of the deposited data

Results flagged for a closer look

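For 6 of the genes followed, those at least 2-fold apart in lymphatic cells, the log2 ratio of CebpaΔSftpc over Cebpa fl/fl had opposite signs in lymphatic and vascular endothelial cells, with both intervals for counting error away from 0. The difference between the cell types was not tested, as each genotype was 1 library. *Abca1* had a log2 ratio of -1.04 in lymphatic and 0.33 in vascular cells, and -1.21 in lymphatic cells without the 10 cells that met the threshold for transcripts of other cells. *Adm*, the adrenomedullin gene, had -2.11 and 1.18, with the 2 UMIs of the CebpaΔSftpc members set to the floor of 3. *Apod* had -5.17 and 0.91, with 1 UMI in CebpaΔSftpc members set to the floor, and -1.62 in lymphatic cells without the 10 cells. *Atf3* had -2.28 and 0.26, and 0.37 in lymphatic cells without the 10 cells. The cycling genes *Top2a* and *Cenpf* had -2.48 and -2.16 in lymphatic cells, with the sums of the CebpaΔSftpc members set to the floor, and 0.90 and 0.98 in vascular cells. In Cebpa fl/fl lymphatic cells, 1 cell held 38 of the 40 *Top2a* UMIs and 27 of the 32 *Cenpf* UMIs, and another held 240 of the 259 *Apod* UMIs.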

How the results depend on the processing

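The log2 ratio of the lymphatic share stayed below 0 under all alternatives run. It was -0.60 among endothelial cells, -0.45 among cells without *Ptprc*, platelet or hemoglobin-rich cells, -0.72 with at least 2 and -1.44 with at least 5 UMIs of the rule genes. The counts of genes at least 2-fold higher and lower, 171 and 297, became 515 and 670 with a minimum of 10 UMIs per gene, 25 and 42 with a minimum of 100, and 319 and 459 when each cell's CPM was weighted equally, where the median of the lymphatic identity list was -0.31. Lower genes numbered 148 when all members with UMIs of other cells, capillary markers included, were left out (85 and 50 cells remained), and 174 without the 10 cells. The count of genes higher than in vascular cells was 517 at 2-fold and 155 at 8-fold. The log2 ratios of *Smad6* (4 and 2 UMIs) and *Mmp2* (5 and 2 UMIs) turned to 0.34 and 0.019 in the former setting, a sign that came from setting the 2 UMIs to the floor of 3. There *Top2a* and *Cenpf* gave no ratio, as neither library had over 3 UMIs. The log2 ratios of *Napsa*, *Mmp2* and *Atf3* turned to 0.044, 0.044 and 0.37 in the latter. The cause of these was not tested. Beside these 5 turned values, 663 values of the genes followed lay within the interval reported, 94 outside it with the same sign and 10 outside it with the opposite sign. The last were those of *Cd74* (-0.12 to -0.66) with other minimums of UMIs and *Lyz2* (1.01 to 1.44) without the cells above or with equal weights. The rest were *Cebpa* (1.56, from 4 and 7 UMIs) in the former setting, and *Flt4* (-0.070), *Sox18* (-0.22) and *Mrc1* (-0.22) with equal weights. Depth limits genes with few UMIs. Over all genes, the intervals reached a median of 0.79 on the log2 scale to either side. No paired analysis was possible because each genotype was 1 library.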
